A study of Mus musculus with 2 samples.

Results

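Among single cells of mouse embryoid bodies, a small set transcribed the simple-epithelial keratins Krt8 and Krt18 together with Rhox6, Plac1 and Hand1, genes known from the trophoblast, and was examined here for what else it transcribed. Embryoid bodies are floating clumps of stem cells in which differentiation starts. They were made from J1 embryonic stem cells, which are male, and had been given dTAG13 or the solvent DMSO for 2 days before dissociation with trypsin. dTAG13 is a degrader of proteins that carry an FKBP12 variant as a tag; the labels do not name the tagged protein, and the title of the series names Tex10. Each group was 1 library (10x Chromium 3′), so the libraries are compared as libraries: no test was possible, and every interval below covers counting error only. A kept cell had at least 500 genes and at most 10% of its UMIs (unique molecular identifiers, counts of tagged transcripts) from mitochondrial genes. A kept cell entered the set with at least 4 UMIs of Krt8 plus Krt18, the keratin gate, and at least 4 UMIs of Rhox6 plus Plac1 plus Hand1, the second gate. The set held 44 of 11588 kept cells in the dTAG13 library and 54 of 17878 in the DMSO library, 98 of 29466 in all. All other kept cells of the same library, cells of 1 gate included, are called the other cells.

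The trophoblast is the first epithelium of the mouse embryo. It forms the outer wall of the blastocyst and then the placenta, and it is marked by keratins 8 and 18, which pair into intermediate filaments. Cdx2, Eomes, Elf5, Tfap2c and Gata3 are known as transcription factors of its early and stem cell state, Hand1, Ascl2 and Gcm1 as factors of its differentiated cells, and several imprinted genes act in the placenta. Embryonic stem cells derive from the inner cell mass and contribute little to this lineage.

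Promoter sequence is shown for the gate genes because their transcripts define the cells. The windows run from 250 bases before to 50 bases after a RefSeq transcript start (GRCm38.p6). RefSeq's table held a window for 20 of 29 genes looked up, namely the gate genes and the genes with the highest ratios in either library; Rhox6 and Hand1 were among the 9 without one. Krt8 and Krt18 are neighbours on chromosome 15, and Plac1 has 2 start sites on chromosome X. Capitals mark matches, on either strand, to TATAAA (the TATA box) or AGATAA (the site of GATA factors); the TATAAA matches of Krt8 are 2 that overlap on opposite strands.
Krt8, chr15:102004293-102004592, minus strand: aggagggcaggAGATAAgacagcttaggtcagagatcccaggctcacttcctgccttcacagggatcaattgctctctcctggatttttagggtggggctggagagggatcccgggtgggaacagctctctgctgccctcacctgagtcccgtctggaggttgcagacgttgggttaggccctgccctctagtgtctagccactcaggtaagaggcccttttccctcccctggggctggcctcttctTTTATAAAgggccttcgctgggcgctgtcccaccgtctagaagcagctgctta
Krt18, chr15:102027966-102028265, plus strand: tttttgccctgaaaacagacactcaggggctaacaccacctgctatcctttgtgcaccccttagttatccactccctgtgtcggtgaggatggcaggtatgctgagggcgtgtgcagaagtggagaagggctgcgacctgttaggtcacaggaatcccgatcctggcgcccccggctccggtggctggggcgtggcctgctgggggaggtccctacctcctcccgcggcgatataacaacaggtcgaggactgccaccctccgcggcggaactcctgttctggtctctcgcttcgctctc
Plac1, chrX:53240061-53240360, minus strand: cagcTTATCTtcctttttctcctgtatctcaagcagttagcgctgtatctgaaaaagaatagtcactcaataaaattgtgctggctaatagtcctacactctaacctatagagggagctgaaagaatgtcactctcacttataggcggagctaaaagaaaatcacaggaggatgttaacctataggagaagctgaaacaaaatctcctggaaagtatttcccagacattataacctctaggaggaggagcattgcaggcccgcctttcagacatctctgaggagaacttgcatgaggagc
Plac1, chrX:53114356-53114655, minus strand: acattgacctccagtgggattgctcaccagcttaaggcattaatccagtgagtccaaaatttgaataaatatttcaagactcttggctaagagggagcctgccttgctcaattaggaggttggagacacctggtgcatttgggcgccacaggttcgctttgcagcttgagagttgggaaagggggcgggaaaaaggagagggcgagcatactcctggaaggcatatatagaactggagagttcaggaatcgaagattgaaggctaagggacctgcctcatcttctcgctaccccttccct
Krt8 held 2 TATAAA matches and 1 AGATAA match, Krt18 held none, and the first Plac1 window held 1 AGATAA match. Of all 32851 windows in the table, 13.6% held TATAAA and 11.2% held AGATAA. Neither the AP-1 motif TGANTCA, found in 7.81% of all windows, nor the TEAD motif GGAATG, found in 14.7%, matched any of the 4. A match is a description of letters, not of a bound site.

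The 5 gate genes chose the cells, so their levels are given as a description. In the dTAG13 set a cell held a median of 13.5 keratin UMIs, from 4 to 107, and 7.5 UMIs of the second gate, from 4 to 116; in the DMSO set the medians were 10 (4 to 67) and 11 (4 to 78). Krt18 was seen in 42 of 44 cells of the dTAG13 set and 54 of 54 of the DMSO set, and Krt8 in 43 and 51. Rhox6, an X-linked homeobox gene transcribed in placenta and germ line, supplied most of the second gate: it was seen in 34 of 44 and 52 of 54 cells, with medians of 4 and 8 UMIs. Hand1, a basic helix-loop-helix factor of trophoblast giant cells and extraembryonic mesoderm, was seen in 36 and 30 cells. Plac1, a placental membrane-associated protein, was seen in 8 and 19 cells, but in only 4 (0.0347%) of the other dTAG13 cells and 16 (0.0898%) of the other DMSO cells. Rhox6 carried fewer of the dTAG13 cells past the gate: 24 and 49 cells had at least 4 Rhox6 UMIs alone, and 23 and 16 reached 4 UMIs with Plac1 and Hand1 alone. Rhox6 was not seen in 10 cells of the dTAG13 set and 2 of the DMSO set.

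Cells near the gates were common. Exactly 4 UMIs in either gate were found in 12 of the 44 dTAG13 cells and 7 of the 54 DMSO cells. Just outside, 10 cells in each library had 3 keratin UMIs with the second gate passed, and 6 and 7 cells had 3 UMIs of the second gate with the keratin gate passed. The set is cut from a range of UMI counts, as the plot of gate UMIs in every kept cell shows.

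**Figure D1:**
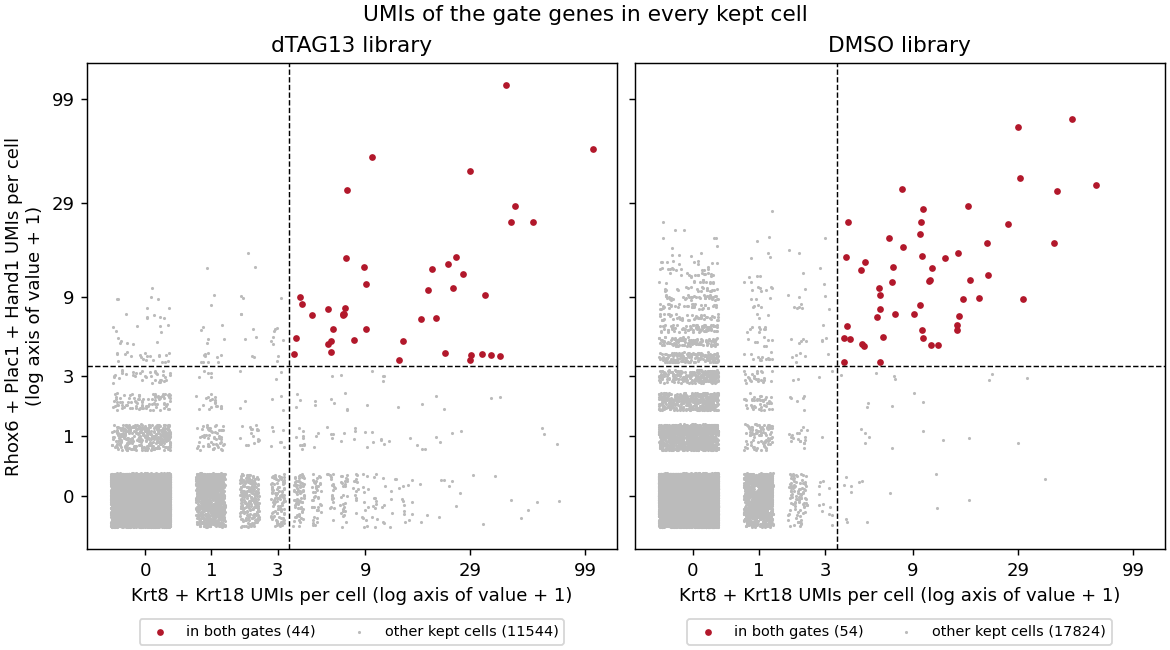
UMIs per cell of Krt8 plus Krt18 (x axis) and of Rhox6 plus Plac1 plus Hand1 (y axis), both on log axes of the value plus 1, for every kept cell of the dTAG13 library (left) and the DMSO library (right), with small random offsets so that cells do not overlap. Dashed lines mark the gates; the 44 and 54 cells above and right of both are the set, cells of the keratin gate only number 308 with dTAG13 and 35 with DMSO, and cells of the second gate only 86 with dTAG13 and 653 with DMSO.

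The set made up 0.380% of kept dTAG13 cells (exact binomial interval 0.276 to 0.509%) and 0.302% of kept DMSO cells (0.227 to 0.394%), intervals that overlap. The gates taken singly ran in opposite directions. The keratin gate was passed by 352 dTAG13 cells (3.04%, 2.73 to 3.37%) and 89 DMSO cells (0.498%, 0.400 to 0.612%), and the second gate by 130 (1.12%, 0.938 to 1.33%) and 707 cells (3.95%, 3.67 to 4.25%). Of cells that passed the keratin gate, 12.5% in the dTAG13 library (9.23 to 16.4%) and 60.7% in the DMSO library (49.7 to 70.9%) also passed the second. Of cells that passed the second gate, 33.8% and 7.64% also passed the keratin gate.

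The matrices held 91850185 UMIs in the dTAG13 library and 117260846 in the DMSO library, of which the set supplied 542550 and 461267. Cells of the set were deeper than the other cells: their median was 11161.5 UMIs (4322 to 28681) against 7061.5 in the dTAG13 library, and 8133.5 (1484 to 21083) against 6009 in the DMSO library. In each library 10 cells of the set lay above the library's 95th percentile of UMIs. Thinning every cell to 3900 UMIs before gating, with shallower cells left out, left 11 to 18 of 10815 dTAG13 cells over 20 random draws (median 15, 0.139%) and 20 to 29 of 16123 DMSO cells (median 25, 0.155%). By these medians the share was lower with dTAG13, where without thinning it was higher, so no order of the libraries is read from it. A fixed gate in UMIs selects deep cells, and barcodes that hold 2 cells are deep as well; doublets were not removed, and the part of either in the values below was not tested. Mitochondrial genes gave a median of 1.80% of UMIs in the dTAG13 set against 1.97% in the other cells, and 2.40% against 2.48% in the DMSO library. The libraries shared 64 barcodes, none of them in the set.

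Levels below are CPM, the usual scaled counts, in which UMIs are summed over the cells of a set and scaled to a common total, and a gene counts as measured with at least 10 CPM on 1 or both sides. Since cells chosen by 5 genes also differ in other genes by that choice, ratios of the set over the other cells are descriptions. In that comparison, 841 of 7560 measured genes (11.1%) were higher by 2-fold or more in the dTAG13 set and 414 (5.48%) at least 2-fold lower; in the DMSO set 1073 of 7367 (14.6%) were higher and 544 (7.38%) lower. The median log2 ratio over all measured genes was 0.07 and 0.11. Of 6821 genes measured in both libraries, 401 were at least 2-fold higher in both sets, which is 69.6% of the 576 higher in the dTAG13 set and 49.6% of the 808 higher in the DMSO set. For lower genes the overlap was 166, or 44.4% of 374 and 35% of 474, and 11 genes were 2-fold apart in opposite directions.

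Transcription factors of the trophoblast were high in both sets, the gate gene Hand1 left aside: 8 of 12 measured genes were at least 2-fold higher and none 2-fold lower in the dTAG13 set (median log2 ratio 1.78), and 6 of 9 were higher and 1 lower in the DMSO set (2.03). The lower gene was Klf5, which naive stem cells also make, at 26.0 against 72.6 CPM (ratio 0.359, 0.185 to 0.627). The median of the dTAG13 set was 1.0 over the 6 factors with at least 50 CPM, and 2.50 without cells above the library's 95th percentile of UMIs. Gata2, which acts in trophoblast giant cells, had 120 CPM in the dTAG13 set against 9.31 in the other cells, a ratio of 12.9 (9.84 to 16.6), and 88.9 against 8.30 CPM in the DMSO library, a ratio of 10.7 (7.63 to 14.6). Ascl2, an imprinted factor needed for the spongiotrophoblast, had 53.5 against 5.64 CPM (ratio 9.47, 6.28 to 13.8) and 52.0 against 0.574 CPM (90.6, 54.4 to 146). Esx1, an X-linked homeobox factor of the placenta, had 24.0 against 1.49 CPM and 43.4 against 2 CPM. In both libraries the sets differed from the other cells at these 3 genes by more than counting error, which does not cover the spread between cells.

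The factors known from the early trophoblast and its stem cells were less uniform. Tfap2c had 173 against 94.3 CPM in the dTAG13 library (ratio 1.84, 1.48 to 2.25) and 108 against 39.2 CPM in the DMSO library (2.76, 2.05 to 3.65). Gata3 had 12 UMIs in 10 cells of the dTAG13 set and 4 UMIs in 4 cells of the DMSO set, and Eomes had 6 UMIs in 6 cells and 5 UMIs in 5 cells. Elf5 was not seen in the dTAG13 set and had 4 UMIs in 2 cells of the DMSO set. Cdx2 had 1 UMI in the dTAG13 set and 0 in the DMSO set, where 0 UMIs allow up to 6.50 CPM, and Sox21 had 0 in both. By level, Eomes was at 11.1 against 2.72 CPM in the dTAG13 library and 10.8 against 2.43 CPM in the DMSO library, and Gata3 at 22.1 against 3.11 CPM and 8.67 against 1.02 CPM. Of these factors Tfap2c, Eomes and Gata3 were higher in both sets, at low counts for Eomes and Gata3, while Cdx2 and Sox21 had at most 1 UMI.

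**Figure D2:**
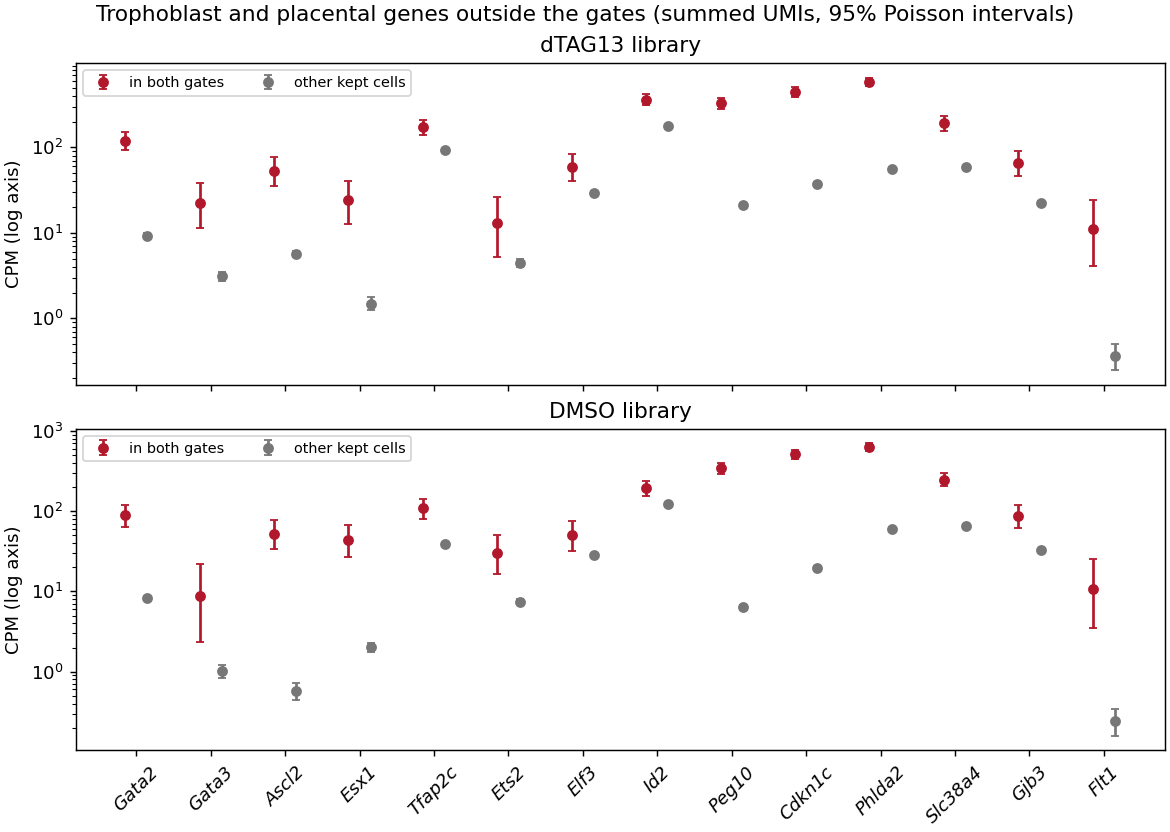
CPM on a log axis of 14 trophoblast and placental genes outside the gates, in the set (red) and in all other kept cells (grey), for the dTAG13 library (top) and the DMSO library (bottom); bars are 95% Poisson intervals of the summed UMIs. The 14 genes are a choice from the lists, and other list genes, Eomes and Tead4 among them, are not drawn. Also left out are Klf5, which was lower in the DMSO set, and the hardly seen Cdx2, Elf5 and Sox21. Of all measured trophoblast factors, 11 of 12 with dTAG13 and 8 of 9 with DMSO were higher in the set by any amount. Of placental proteins, 8 of 9 and 7 of 7 were. For the genes drawn, the point of the set lies above that of the other cells. Examples with dTAG13 are Tfap2c (173 against 94.3 CPM) and Peg10 (330 against 21.2 CPM).

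Placental and imprinted genes were for the most part higher in both sets. Among trophoblast receptors, enzymes and placental proteins, Plac1 left aside, 8 of 9 measured genes were higher by 2-fold or more in the dTAG13 set (median log2 ratio 1.93) and 6 of 7 in the DMSO set (2.25), with none 2-fold lower. Peg10, a retrotransposon-derived imprinted gene that the placenta needs, was seen in 37 and 40 cells and had 330 against 21.2 CPM in the dTAG13 library (ratio 15.6, 13.3 to 18.2) and 340 against 6.37 CPM in the DMSO library (53.4, 44.7 to 63.5). Phlda2, an imprinted gene that restrains placental growth, had 586 against 55.6 CPM and 624 against 60.2 CPM, ratios of 10.5 and 10.4. Slc38a4, an amino acid transporter of the placenta, had 192 against 59.0 CPM and 247 against 65.0 CPM. Flt1, a receptor for VEGF that trophoblast also makes, rested on 6 and 5 UMIs. The hormone and fusion genes of the mature placenta were not seen: Tpbpa, Prl3d1, Prl2c2, Prl3b1, Syna, Synb and Ctsq had 0 UMIs in both sets.

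Of the imprinted genes, 9 of 13 measured were 2-fold or more higher in the dTAG13 set (median log2 ratio 1.70) and 9 of 12 in the DMSO set (2.13), with none 2-fold lower; 4 of the list's genes (Peg10, Phlda2, Slc38a4 and Ascl2) are also on the trophoblast lists. Cdkn1c, a cyclin-dependent kinase inhibitor transcribed from the maternal copy, was seen in 28 and 31 cells and had 448 against 37.8 CPM in the dTAG13 library (ratio 11.8, 10.3 to 13.5) and 512 against 19.8 CPM in the DMSO library (25.8, 22.4 to 29.5). Igf2, a fetal growth factor from the paternal copy, had 8 UMIs in 7 cells and 6 UMIs in 6 cells, at 14.7 against 0.121 CPM and 13 against 0.137 CPM. Peg3 was 3.19-fold (2.65 to 3.81) and 5.01-fold (4.03 to 6.17) higher. In each set, no measured imprinted gene beyond its 9 had a ratio above 1. Among those not higher was the non-coding RNA Meg3, which ran the other way in both libraries. It had 116 against 169 CPM and 49.9 against 73.7 CPM, although the interval of the second ratio, 0.676, reached 1.02.

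Other Rhox genes were nearly silent apart from Rhox9 and Rhox5. Rhox9, the neighbour and close relative of Rhox6, had 529 against 13.3 CPM in the dTAG13 library (ratio 39.8, 34.9 to 45.3) and 1101 against 65.2 CPM in the DMSO library (16.9, 15.4 to 18.5). Rhox5 had 25.8 against 16.2 CPM and 80.2 against 48.1 CPM. The remaining 11 Rhox genes looked up had at most 1 UMI in either set. Values of single Rhox genes, of Magea9, Fthl17a and Nxf7 are uncertain, since the assignment of reads from near-identical copies is not described in the labels or file headers.

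Epithelial genes were higher in part. With Krt8 and Krt18 left aside, 9 of 21 measured keratins and junction genes were at least 2-fold higher and 1 lower in the dTAG13 set (median log2 ratio 0.73), and 13 of 20 were higher and none lower in the DMSO set (1.21). Krt7, another keratin of simple epithelia, had 51.6 against 7.93 CPM and 65.0 against 1.29 CPM. Krt19 had 151 against 16.9 CPM and 139 against 1.60 CPM. Cldn4 and Cldn7, tight junction proteins, were 2.41-fold (1.88 to 3.06) and 3.15-fold (2.54 to 3.87) higher in the dTAG13 set and 4.92-fold (3.59 to 6.58) and 5.0-fold (4.08 to 6.07) higher in the DMSO set. Epcam and Cdh1, which embryonic stem cells also make, differed less: Epcam was 1.31-fold and 1.40-fold higher and Cdh1 1.99-fold and 2.39-fold higher.

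Actin-binding genes and annexins were higher as well, at 14 of 19 measured genes in the dTAG13 set (median log2 ratio 1.40) and 15 of 21 in the DMSO set (2.07), with 1 lower in each. S100a6, a calcium-binding protein, had 1812 against 289 CPM and 505 against 67 CPM. Anxa2, which links membranes to actin, was 8.08-fold (6.47 to 9.97) and 12.6-fold (10.1 to 15.6) higher. The gene that was lower in both libraries was Vim, the intermediate filament of mesenchymal and many cultured cells: it had 5 UMIs in the dTAG13 set, at 9.22 against 74.0 CPM (ratio 0.125, 0.0404 to 0.291), and 3 UMIs in the DMSO set, at 6.50 against 69.9 CPM (0.0930, 0.0192 to 0.272).

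The genes with the highest ratios in the set were chosen by rule. The limits for naming were met by 5381 genes in the dTAG13 library and 5052 in the DMSO library. Shared by the 15 highest of both libraries were 6 genes: Magea9, Dkk1, Tinagl1, Col4a2, Peg10 and Pdgfb. The 10 lowest of each library shared no gene. Magea9, an X-linked gene of the melanoma antigen family, had 103 against 1.81 CPM in the dTAG13 library and 158 against 2.03 CPM in the DMSO library, and was seen in 21 and 37 cells. Dkk1, a secreted Wnt inhibitor, had 46.1 against 1.07 CPM and 30.4 against 0.351 CPM. Col4a2 and Col4a1, which encode the paired chains of basement membrane collagen IV, had 55.3 against 1.71 CPM and 111 against 5.42 CPM in the dTAG13 library, and 41.2 against 1.13 CPM and 119 against 4.33 CPM in the DMSO library. Tinagl1, a secreted basement membrane protein, was 38.9-fold (24.8 to 59.1) and 45.3-fold (27.4 to 71.6) higher. Pdgfb, a growth factor, rested on 12 and 10 UMIs. Others among the highest were Rhox9, Taf7l, Klk7, Col4a1, Slc5a5, Stmn4, Esx1 and Nppb in the dTAG13 set, and Pmp22, Ascl2, Krt19, Nxf7, Krt7, Batf3, Gsn, Acta1 and Wnt4 in the DMSO set.

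X-linked genes were a larger share of the highest genes than of all measured genes, the gate genes left out. Of genes at least 8-fold higher, a limit chosen after the values were seen, 13 of 65 in the dTAG13 set (interval of the share 11.1 to 31.8%) and 15 of 120 in the DMSO set (12.5%, 7.17 to 19.8%) were X-linked, against 3.21% and 3.39% of all measured genes. At 2-fold the shares were 4.96% and 5.45% of the higher genes and 5.65% and 3.75% of the lower genes, so with dTAG13 that limit did not set the higher genes apart. Esx1, Fthl17a, Magea9, Mbnl3, Nrk, Nxf7, Rhox9, Rnf128 and Tceal5 were 8-fold higher in both sets, together with the transcript C430049B03Rik.

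Genes of other extraembryonic lineages were higher in part. Of extraembryonic endoderm, a neighbouring lineage that also makes keratins and collagen IV, 3 of 5 measured genes were at least 2-fold higher in each set (median log2 ratio 1.11 and 1.39), and these were Col4a1, Col4a2 and Lamb1. Among its factors and secreted proteins, Gata4, Sox17, Sox7, Foxa2, Dab2, Cubn, Afp, Ttr and Thbd had 0 UMIs in both sets, and Gata6 had 4 UMIs and 1 UMI. Of extraembryonic mesoderm and amnion, Hand1 left aside, 4 of 5 measured genes in the dTAG13 set and 3 of 5 in the DMSO set were at least 2-fold higher (median log2 ratio 2.70 and 2.66), with Bmp4 lower in the DMSO set. Those medians lie above the ones of the trophoblast factors. The higher genes were Gata2, which is also on the trophoblast list, Msx2 and Igf2 in both, and Wnt6 in the dTAG13 set. Foxf1, Tdo2, Kdr, Hand2, Postn and Tbx20 had at most 1 UMI, and Bmp4 had 0 UMIs in the dTAG13 set and 1 in the DMSO set, against 3.64 and 13.2 CPM in the other cells.

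Of the fibroblast markers Col1a1, Col1a2, Col3a1, Thy1, Postn, Dcn, Lum, Twist2, Fbln2, Loxl1 and Pdgfrb, Col1a1 had 1 UMI in the dTAG13 set and the rest had 0 in both sets. The primitive streak genes T, Mixl1, Evx1, Gsc and Tbx6 had 0 UMIs in both sets; of that list 1 of 1 measured gene in the dTAG13 set and 1 of 2 in the DMSO set were at least 2-fold higher, Eomes in each, and 1 was lower in the DMSO set. Germ cell genes were at least 2-fold higher at 0 of 7 measured genes in the dTAG13 set and 2 of 7 in the DMSO set, with 2 lower in each (median log2 ratio −0.26 and −0.55). Neural genes were higher at 1 of 3 and 0 of 2, with 1 and 0 lower (0.02 and 0.01). Formative pluripotency genes were higher at 2 of 6 and 2 of 7, with 2 and 3 lower (−0.40 and −0.61). Tcf15, a formative factor, had 1 UMI in the dTAG13 set, at 1.84 against 34.9 CPM (ratio 0.0528, 0.00134 to 0.294), and 11 UMIs in the DMSO set, at 23.8 against 96.8 CPM (0.246, 0.123 to 0.441).

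Among lists of cell state, p53 targets had medians of −0.01 and 0.23 over 30 and 28 measured genes, S phase genes −0.32 and −0.13 over 24, and genes of G2 and M phase −0.37 and −0.02 over 26. No gene of the S, G2 and M lists was at least 2-fold higher in either set. Immediate-early genes, which trypsin dissociation can induce, were higher at 4 of 9 genes with 1 lower in the dTAG13 set and at 5 of 10 with 2 lower in the DMSO set (0.91 and 0.96). BMP and Id targets were higher at 3 of 6 and 2 of 7, with 0 and 1 lower (0.90 and 0.66).

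**Figure D3:**
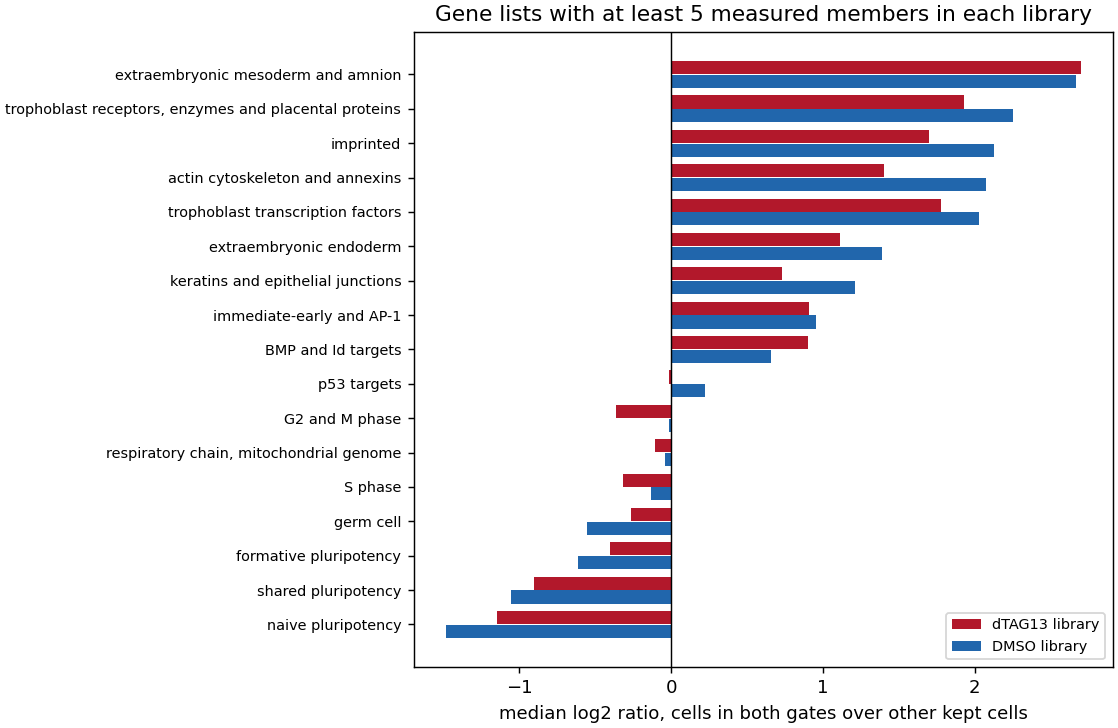
Median log2 ratio of the set over the other kept cells for gene lists with at least 5 measured members in each library, gate genes left out, with the dTAG13 library above the DMSO library in each pair of bars. Extraembryonic mesoderm, placental, trophoblast, imprinted and actin lists lie at the positive end (trophoblast factors at 1.78 and 2.03) and pluripotency lists at the negative end (naive genes at −1.15 and −1.48); cell cycle lists lie between −0.37 and −0.02.

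Pluripotency genes were lower in the set. Of the genes that naive and primed pluripotent cells share, none of 11 was at least 2-fold higher, 4 were 2-fold lower in the dTAG13 set and 7 in the DMSO set (median log2 ratio −0.90 and −1.06). Pou5f1, which holds cells pluripotent and represses trophoblast genes, was seen in 34 of 44 and 36 of 54 cells, with 276 against 517 CPM in the dTAG13 library (ratio 0.535, 0.453 to 0.628) and 295 against 613 CPM in the DMSO library (0.481, 0.404 to 0.569). Sox2, its partner, was seen in 19 and 20 cells, with 103 against 335 CPM (0.308, 0.233 to 0.400) and 95.4 against 292 CPM (0.327, 0.237 to 0.439). Within the list Trim71, an RNA-binding protein, ran the other way and was 1.38-fold (1.08 to 1.73) and 1.90-fold (1.48 to 2.41) higher.

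Genes of naive pluripotency were lower at 9 of 16 measured members in the dTAG13 set and 12 of 16 in the DMSO set, with none 2-fold higher (median log2 ratio −1.15 and −1.48). Nanog, a naive factor, had 31.3 against 72.9 CPM and 23.8 against 86.4 CPM. Zfp42, a marker of naive cells, had 149 against 407 CPM and 154 against 621 CPM. Lefty2 and Tdgf1, of the Nodal pathway, were among the 10 lowest ratios of the dTAG13 set: Tdgf1, a Nodal co-receptor, had 70 against 335 CPM there and 106 against 351 CPM in the DMSO library. Dppa5a, an abundant stem cell transcript, was seen in 44 of 44 and 52 of 54 cells, at 4389 against 6594 CPM and 3963 against 7275 CPM. In the other cells Pou5f1 was seen in 92.7% with dTAG13 and 94.3% with DMSO, and Sox2 in 83.6% and 77.5%. How much of the pluripotency UMIs in the set was free RNA in the droplets was not tested, since no cell type that lacks these genes was defined here.

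Cell by cell the sets were mixed. Per 10000 UMIs, cells held a median of 9.05 shared pluripotency UMIs in the dTAG13 set (0 to 28.9) against 22.9 in the other cells, and 9.14 (0 to 38.9) against 24.9 in the DMSO library. Below the 5th percentile of the other cells lay 22 of 44 and 34 of 54 cells of the set, while 2 and 3 cells lay at or above the other cells' median. Of 39 trophoblast genes outside the gates taken as a sum, cells of the set held a median of 19.1 per 10000 UMIs against 4.84 in the dTAG13 library, and 18.6 against 4.28 in the DMSO library. Above the 95th percentile of the other cells in that sum lay 29 of 44 (65.9%, 50.1 to 79.5%) and 39 of 54 cells (72.2%, 58.4 to 83.5%). Both marks, low pluripotency and high trophoblast sum, were carried by 17 and 29 cells, while 12 and 10 cells had a high trophoblast sum without low pluripotency.

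**Figure D4:**
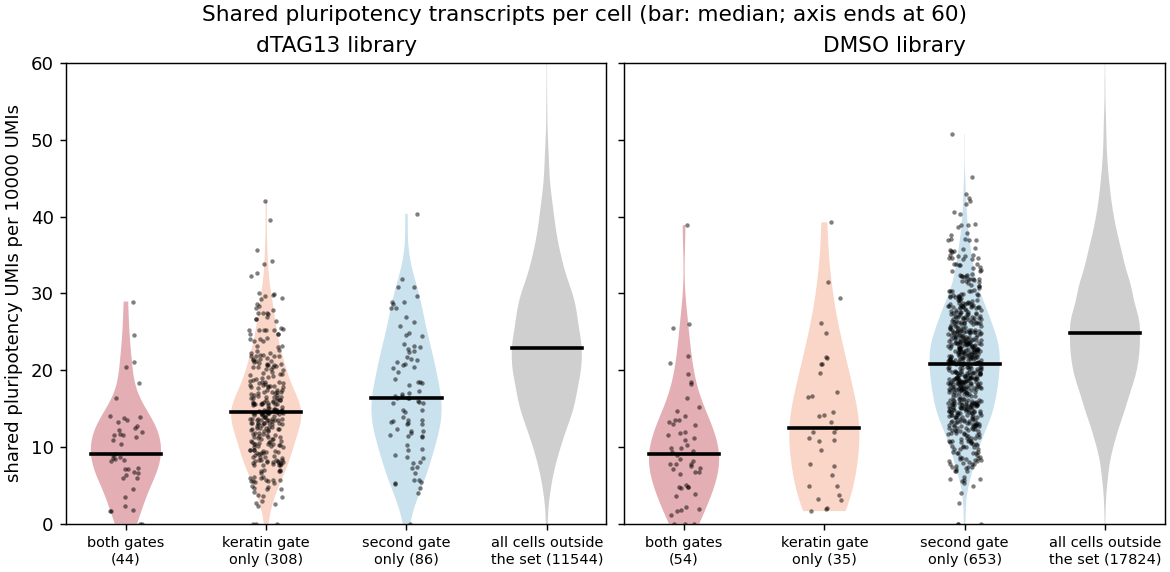
Shared pluripotency UMIs per 10000 UMIs of each cell (y axis, cut at 60), for the set, cells of the keratin gate only, cells of the second gate only and all cells outside the set, in the dTAG13 library (left) and the DMSO library (right); bars are medians, points are cells and shapes show their density. The set has the lowest median in each library, 9.05 and 9.14, with single cells up to 28.9 and 38.9.

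Cells that passed 1 gate were set beside the cells of both gates, as a description. Against the 308 cells of the keratin gate only in the dTAG13 library, 418 of 7590 measured genes (5.51%) were at least 2-fold higher in the set and 361 (4.76%) lower. Trophoblast receptors and placental proteins were higher in the set at 7 of 9 genes and trophoblast factors at 5 of 12, but epithelial genes at 2 of 21 and actin genes and annexins at 2 of 21, with 4 of these lower. Imprinted genes were higher at 6 of 14, with 4 lower. Krt19 had 151 CPM in the set and 146 in keratin-only cells, where Cdkn1c had 448 and 91.6 CPM and Rhox9 529 and 9.24 CPM. Tagln, an actin-binding gene of smooth muscle, was higher in keratin-only cells, at 221 CPM in the set and 520 in those cells. Naive genes were not lower in the set than in keratin-only cells: 2 of 12 were at least 2-fold higher and 0 lower (median log2 ratio 0.51). Shared pluripotency genes were higher at 1 of 11 and lower at 2 (−0.59).

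Against the 653 cells of the second gate only in the DMSO library, 799 of 7330 measured genes (10.9%) were at least 2-fold higher in the set and 434 (5.92%) lower. Actin genes and annexins were higher in the set at 15 of 21 genes, imprinted genes at 10 of 12, epithelial genes at 8 of 20 and trophoblast factors at 5 of 9, and naive genes were lower at 10 of 15. Rhox9 had 1101 CPM in the set and 604 in second-gate-only cells, where Peg10 had 340 and 10.6 CPM and Cdkn1c 512 and 9.45 CPM. The 35 keratin-only DMSO cells gave 286432 UMIs; in that comparison 731 of 7887 genes (9.27%) were at least 2-fold higher in the set and 965 (12.2%) lower. These cells held a median of 1 second-gate UMI, against 0 in keratin-only dTAG13 cells. Trophoblast factors were higher in the set than in them at 4 of 10 genes, placental proteins at 2 of 10 with 3 lower (median log2 ratio 0.02). Imprinted genes were higher at 4 of 13 with 3 lower (median log2 ratio −0.13), and naive genes at 2 of 15 with 2 lower (0.47). Against the 86 second-gate-only cells with dTAG13, 706 of 7615 genes (9.27%) were higher in the set and 429 (5.63%) lower, with trophoblast factors higher at 7 of 12. Actin genes and annexins were higher in the set at 10 of 19 and imprinted genes at 4 of 12, and naive genes were lower at 7 of 15. Phlda2 was high in the second-gate-only dTAG13 cells too, at 586 CPM in the set and 391 in those cells.

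**Figure D5:**
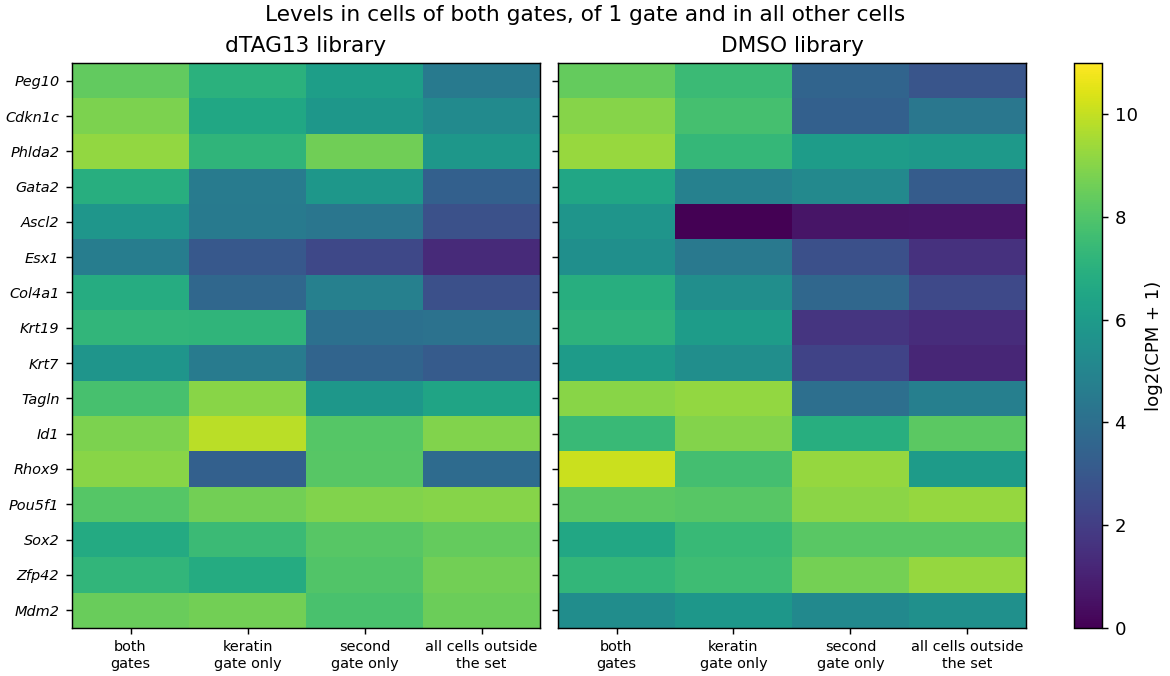
Levels, as log2 of CPM plus 1 in colour, of 16 genes in the set, in cells of 1 gate and in all cells outside the set, for the dTAG13 library (left) and the DMSO library (right). Peg10, Cdkn1c, Gata2 and Col4a1 are highest in the set in both libraries, Tagln is higher in keratin-only cells (520 CPM with dTAG13 and 594 with DMSO) than in the set, Rhox9 is shared with cells of the second gate, and Mdm2 differs between libraries in every class.

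Between treatments, with 1 library each, the set can be compared only as these libraries. Of 7719 genes measured in either set, 945 (12.2%) were higher by 2-fold or more in the dTAG13 set and 599 (7.76%) lower (median log2 ratio 0.03); in the other cells 384 of 6947 (5.53%) were higher and 94 (1.35%) lower (0.07). Fewer UMIs lie behind the first comparison, and the difference between these ratios in the set and in the other cells was not tested. Targets of p53 were higher at 19 of 27 measured genes in the dTAG13 set and lower at 1 (median log2 ratio 1.37), and higher at 23 of 31 in the other cells (1.33). Mdm2, the ubiquitin ligase that p53 induces, had 356 CPM in the dTAG13 set and 41.2 in the DMSO set, a ratio of 8.64 (5.38 to 14.7), against 8.03 in the other cells. Cdkn1a, the p21 cell cycle inhibitor, had 389 and 84.5 CPM, a ratio of 4.60 (3.26 to 6.65), against 3.46 in the other cells.

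Several trophoblast and epithelial genes had like levels in both sets. Peg10 had 330 CPM in the dTAG13 set and 340 in the DMSO set (ratio 0.969, 0.778 to 1.21), and Phlda2 had 586 and 624 CPM (0.939, 0.798 to 1.10). Ascl2 had 53.5 and 52.0 CPM (1.03, 0.577 to 1.84) and Krt19 151 and 139 CPM (1.09, 0.776 to 1.53). In the other cells, of which 308 with dTAG13 and 35 with DMSO passed the keratin gate only, the ratios of these 4 genes were 3.32, 0.925, 9.83 and 10.6. With the gate genes left aside, 3 of 12 measured trophoblast factors were higher by 2-fold or more in the dTAG13 set and 1 lower (median log2 ratio 0.55), and of placental proteins 1 of 9 was higher and 1 lower (−0.09). Rhox9 was lower in the dTAG13 set, at 529 CPM against 1101 in the DMSO set (0.480, 0.414 to 0.556), and in the other cells the ratio was 0.204. Plac1, a gate gene, had 55.3 and 152 CPM.

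Immediate-early genes were higher at 5 of 9 in the dTAG13 set (median log2 ratio 1.03, and 1.06 in the other cells); Atf3, a stress-induced factor, had 135 CPM there and 15.2 in the DMSO set. S phase genes were lower at 6 of 24 (median −0.51, against −0.35 in the other cells) and genes of G2 and M phase at 2 of 26 (−0.36, against 0.12). Of the genes at the low end chosen by rule, Acta2, smooth muscle actin, had 1 UMI in the dTAG13 set and 32 in the DMSO set (ratio 0.0266, 0.000653 to 0.159), and Cited1, a transcriptional regulator of the placenta, had 2 and 16 (0.106, 0.0119 to 0.452). At the high end, Stmn4, Neurod1 and Hormad1 had 12, 12 and 17 UMIs in the dTAG13 set and 0 in the DMSO set. Neural genes, taken as a list, were higher with dTAG13 at 2 of 3 genes in the set and 2 of 3 in the other cells (median log2 ratio 1.77 and 1.89). Xist, the RNA that coats an inactive X chromosome, had 57 UMIs in 11 of 44 cells of the dTAG13 set, 18 of them in 1 cell and 15 in another, and 0 UMIs in the 54 cells of the DMSO set. Of the other cells, 4.74% with dTAG13 and 1.71% with DMSO held a Xist UMI. Keratin-only cells also held it, with 56.3 CPM with dTAG13 and 76.8 CPM with DMSO, against 12.6 and 3.26 CPM in all other cells, which include them.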

How the data were processed

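Gene-by-cell matrices of 1 library per group were used. The authors deposited whole-number UMI counts; per the file headers they come from Cell Ranger 8.0.1. Seurat 5.0.1, R 4.3.2 and the build mm10 appear in the submitters' processing notes, with no role. The annotation, and how barcodes were filtered before deposit, are not given in the sources used here. Counts of identifiers that share a symbol were summed.

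From the deposited counts, barcodes were kept from 500 genes up and with mitochondrial UMIs of 10% or less, and gates of 4 UMIs applied. No doublet caller was run. UMIs summed over a set were scaled to CPM; ratios have exact conditional binomial intervals, shares exact (Clopper-Pearson) ones and CPM Poisson ones, at 95%. They cover counting error only. A count of 0 allows up to 3 UMIs. Log2 ratios in lists are over genes with at least 10 CPM on 1 or both sides. Ratio intervals were tested on simulated data. Python 3.11.15, numpy 2.4.6, scipy 1.17.1, pandas 2.3.3 and matplotlib 3.10.9 were used.

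Members and lists were chosen with earlier results of these data known. Named genes had at least 20 CPM and a UMI in at least 10% of cells of the higher side, predicted, ribosomal protein and mitochondrial genes left out: the 15 highest and 10 lowest ratios per library, the 10 highest and 10 lowest between treatments, up to 4 per list and comparison, and the gate genes with Pou5f1, Sox2 and Nanog. Genes described outside that rule were chosen after their values were seen, to account for their lists; not every gene the rule takes is described. The trophoblast sum per cell takes both trophoblast lists without the gate genes and Klf5, which is also on the naive list. It was set after the data were seen, in place of a trimmed sum. Alternatives were other limits on cells, gates, CPM and scaling, thinning, and leaving out deep cells.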

Additional observations from a re-analysis of the deposited data

How the results depend on the processing

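No paired analysis was possible because each group is 1 library. Of the values under alternatives, 66 stayed within the interval of the value reported, or within 1.5 times it for a count, and 9 moved. No median changed sign. For a list median, the interval used is the median of its single genes' bounds, not an interval of the median itself. It is wide, 0.69 to 2.91 for trophoblast factors with dTAG13, so staying within it says little. Among the values that stayed, wide shifts were seen in both libraries. With dTAG13 the trophoblast factor median of 1.78 went to 1.0 at 50 CPM and to 2.50 without the deepest cells. With DMSO that median went from 2.03 to 1.47 at 50 CPM, and the shared pluripotency median from −1.06 to −1.56 without the deepest cells. The share of kept cells in the set moved to 0.535% with dTAG13 and 0.408% with DMSO at 3 UMIs per gate, and to 0.233% and 0.218% at 6 UMIs. After thinning to 3900 UMIs it was 0.157% and 0.149% in the draw used for the medians, with ranges of 0.102 to 0.166% and 0.124 to 0.180% over 20 draws (medians 0.139% and 0.155%), which turns the order of the libraries. Restricting the DMSO set to cells with a Plac1 or Hand1 UMI, an alternative added after the data were seen, gave 0.224%. The shared pluripotency median log2 ratio with dTAG13 moved to −1.18 at 6 UMIs per gate and −1.16 after thinning. The trimmed trophoblast sum, of 35 genes with Cdkn1c added and Tfap2c, Id2, Tfrc, Slc2a1 and Tead4 removed, was tried first; it put 33 and 43 cells above the 95th percentile, where the 39-gene sum puts 29 and 39. Scaling by the median of ratios took the trophoblast factor median from 1.78 to 1.80 with dTAG13 and left it at 2.03 with DMSO. The p53 target median between the sets went from 1.37 to 1.42. Genes with under about 10 UMIs in a set, among them Elf5, Igf2, Flt1 and Cited1, carry wide counting intervals.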
